A study of Mus musculus with 16 samples.

Results

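Wild type germline stem (GS) cells of the Hif1a line were compared after culture in 1% oxygen and in 20% oxygen, across every protein-coding gene detected. GS cells are the cultured form of mouse spermatogonial stem cells, the testis cells that renew themselves and supply sperm production. The comparison uses 4 of the 16 libraries in the series: 2 from Hif1a wild type cells at 1% oxygen and 2 from the same wild type line at 20% oxygen. Both groups came from testis, carried a wild-type Hif1a gene on a mixed 129 x C57BL/6 background, and were grown with the growth factors GDNF and FGF2 on mouse embryonic fibroblasts, the feeder layer. Low oxygen was produced in plastic bags gassed with 1% oxygen, 5% carbon dioxide and 94% nitrogen. The age of the donors and the number of founding cultures are not stated. DBA/2 wild type cells, with 2 libraries at 1% and 2 at 20% oxygen under the same growth factors and feeders, served as a second line in which the oxygen response could be set beside this one. The 4 libraries of the Hif1a line held 14841 testable genes of 21924 in the table, a testable gene being one with at least 1 CPM (counts per 1000000 reads on listed genes) in at least 2 of all 16 libraries.

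Some facts of the design limit the comparison. The series text gives 2 days in 1% oxygen, while the names of the 1% libraries of this line carry "6d", so the time is uncertain. The names also number the 1% libraries 17 and 18, with an added "B", and the 20% libraries 9 and 10, so library set and oxygen cannot be told apart. The knockout cells of this line received the Cre virus AxCANCre, and the sources used here do not say whether wild type cells received a control virus. Nothing says that the 2 libraries of a group came from separate cultures, so the spread between them may be technical. P-values and standard errors rest on that spread, pooled over all 8 groups of 2 libraries in the series and not taken from this line alone. RNA came from whole cultures, in which fewer cells of a type and less RNA per cell cannot be told apart.

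Cells sense oxygen mainly through prolyl hydroxylases of the EGLN family, which use oxygen to mark the alpha subunits of hypoxia-inducible factor (HIF) for destruction by the VHL ubiquitin ligase. When oxygen is scarce, HIF-1 alpha (Hif1a) and HIF-2 alpha (Epas1) persist, pair with ARNT and bind short sequences built around ACGTG or GCGTG, from which they activate glucose transport, glycolysis, pH control, angiogenic factors and mitophagy. Spermatogonial stem cells depend on GDNF, which feeders and Sertoli cells supply and which acts through the receptors GFRA1 and RET, and they are known for a largely glycolytic metabolism.

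Germ cell markers were at like levels in all 4 libraries, and feeder markers were not. The summed level of the 14 tested germ cell identity genes was 4698 and 4390.5 CPM in the 1% libraries, against 4516 and 4454 CPM in the 20% libraries, and 1 further listed gene, Tex13a, was listed at 0. The 24 feeder fibroblast markers summed to 23792 and 30007 CPM at 1% oxygen, against 9136 and 9851 CPM at 20%, so both 1% libraries lay above both 20% libraries. In DBA/2 cells the same feeder sum averaged 5002 CPM at 1% oxygen and 7039.6 CPM at 20%. Markers of testis somatic cells summed to 39.0 and 39.2 CPM at 1%, against 49.4 and 52.6 CPM at 20%, and the Sertoli and Leydig genes Amh, Cyp17a1, Cyp11a1, Hsd3b1 and Insl3 did not pass the filter on low values. Leukocyte markers summed to 15.8 and 17.8 CPM at 1%, against 16.7 and 17.1 CPM at 20%, and endothelial markers to 21.9 and 19.8 CPM at 1%, against 30.3 and 25.7 CPM at 20%. Depth ran from 13721246 to 20918532 reads on the listed genes. The 2 libraries at 1% differed from each other more than the 2 at 20% did, with a chi-square per gene of 7.60 at 1% and 1.79 at 20%, where 1 would mean counting error alone. The 7.60 was the highest of the 8 groups in the series, the next being 3.68. The pooled spread may therefore understate that of the 1% libraries.

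**Figure D1:**
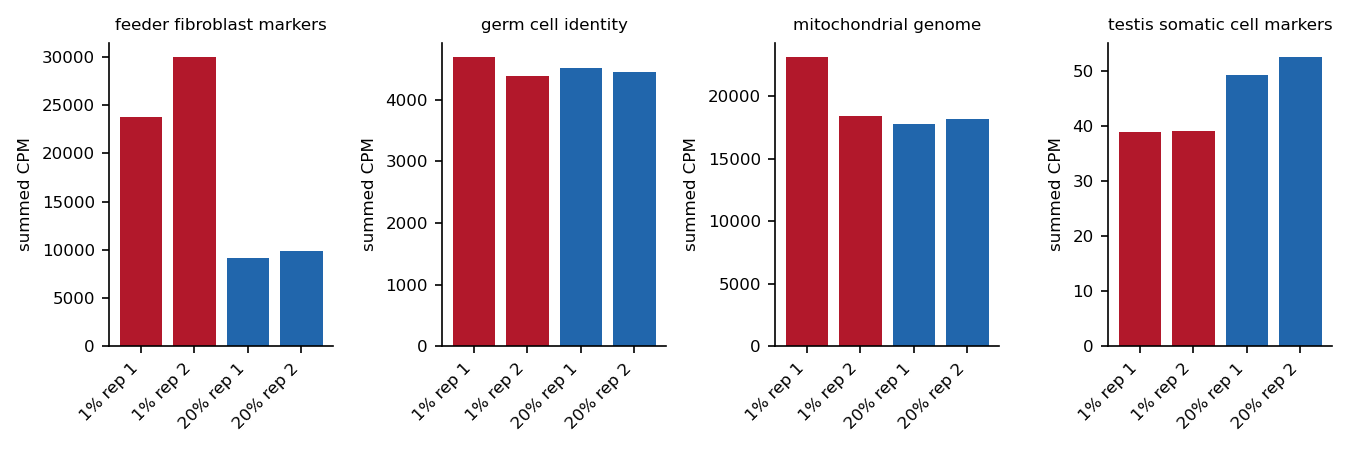
Summed CPM of the feeder fibroblast markers, germ cell identity genes, mitochondrially encoded genes and testis somatic cell markers in each of the 4 Hif1a wild type libraries, 1% oxygen in red and 20% in blue, 1 bar per library. The feeder sums of both 1% libraries lie above those of both 20% libraries, while the germ cell sums lie between 4391 and 4698 CPM. Of the 13 mitochondrially encoded genes, 5 were listed at 0 in all 4 libraries and add nothing to the sum.

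The response to 1% oxygen was broad and mostly small, with a long tail of strong rises. Of the 14841 genes, 7877 (53.1%) were called at an adjusted p under 0.05 by limma on log2(CPM + 1), 2737 (18.4%) higher and 5140 (34.6%) lower at 1% oxygen. The libraries of the 2 oxygen levels did not overlap in 10989 genes (74%). A separation of the libraries of this line given below for single genes is to be read against that share. Of the called genes, 5762 (73.15%) changed by less than 1.5-fold. Among larger changes rises outnumbered falls: 459 genes (3.09%) were called higher and 231 (1.56%) lower by at least 2-fold, and 97 higher and 10 lower by at least 4-fold. At 8-fold or more, 18 genes were higher and 1, Col10a1, was lower. The median log2 fold change over all genes was -0.09, and the split of calls turned on the scaling, since TMM scaling, which evens out composition between libraries, gave 3625 higher and 3702 lower. Below, a log2 fold change is always that of CPM + 1, 1% over 20% oxygen, given ± its standard error, the count of calls in a gene list is to be read against the 18.4% higher and 34.6% lower of all genes, and "rose" and "fell" are used for genes called at that threshold.

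**Figure D2:**
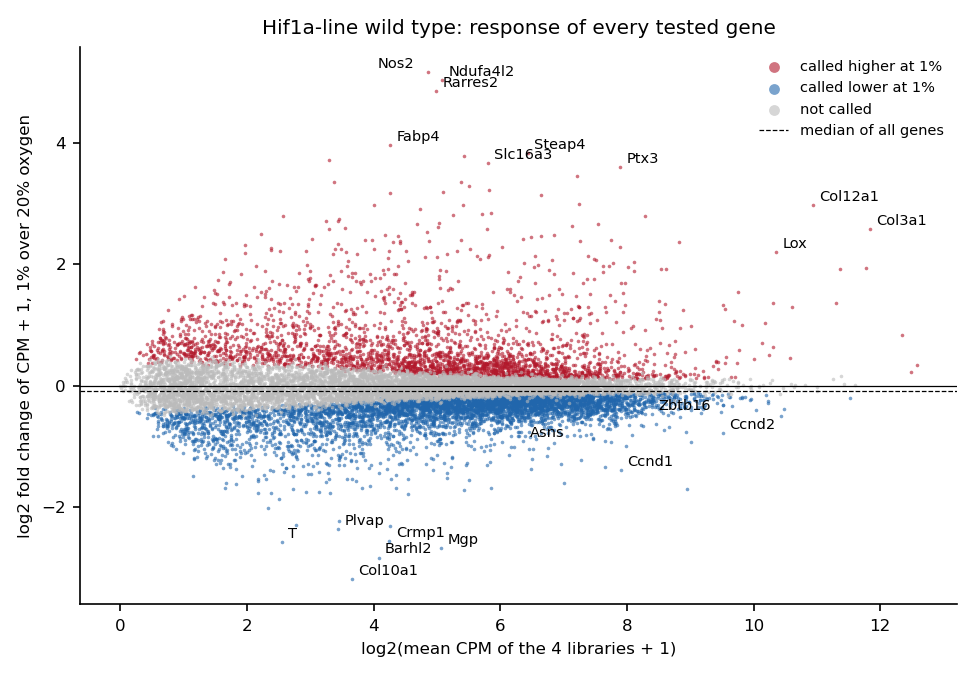
Log2 fold change of CPM + 1 (1% over 20% oxygen) of each of 14841 genes against its mean level, log2(mean CPM of the 4 libraries + 1), with genes called higher in red, called lower in blue and not called in grey. The largest rises (Nos2, Ndufa4l2, Rarres2) reach log2 changes of 4.86 to 5.17, while the largest fall (Col10a1) is -3.18.

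The strongest rises included low-oxygen genes and secreted defence proteins. Nos2, the inducible nitric oxide synthase, stood at 49.4 and 61.1 CPM at 1% oxygen, against 0.306 and 0.860 CPM at 20%. Both 1% libraries lay far above both 20% libraries, a log2 fold change of 5.17 ± 0.14 (limma adjusted p = 5.7e-16). The rule for naming the largest rises required that the libraries do not overlap. Ndufa4l2, a HIF-induced relative of a respiratory chain subunit, had 57.7 and 71.9 CPM at 1% oxygen, against 0.980 and 1.004 CPM at 20% (5.04 ± 0.13 on the log2 scale); part of its exons overlap Shmt2 on the opposite strand, and the strand setting of the counting is not given, so its level is uncertain. Rarres2, which encodes the chemoattractant chemerin, had 55.8 and 65.1 CPM at 1% oxygen, against 1.164 and 1.05 CPM at 20%, a log2 fold change of 4.86 ± 0.10, and it overlaps Lrrc61 in the same way. Among other genes named here, Aldoa, Arhgap9, Ccnd1, Cox4i1, Creb3, Cryab, Ctsw, Cyp51, Ddit3, Dnd1, Dnmt3l, Egln2, Fam162a, Gys1, Kdm2b, Krt7, Loxl3, Neurog3, Nsg1, Spred3 and Sycp3 also share exon positions with a gene on the opposite strand, and Pgls with one on its own strand. Fabp4, a fatty acid binding protein, rose by 3.97 ± 0.16 to 35.1 and 35.2 CPM at 1%, against 1.10 and 1.53 CPM at 20%. A2m, a secreted protease inhibitor, had 79.1 and 79.0 CPM at 1% oxygen, against 5.39 and 4.30 CPM at 20% (3.78 ± 0.09). Gpr35, a G protein-coupled receptor, had 15.4 and 20.3 CPM at 1% oxygen, against 0.858 and 0.765 CPM at 20% (3.37 ± 0.15). The remaining genes among the 12 largest rises were Steap4, Car9, Slc16a3, Ptx3, Saa3 and Adm, with log2 fold changes of 3.37 to 3.83, and each is described with its group below. Reg3g, a secreted antimicrobial lectin, was listed at 0 in both 20% libraries and had 19 and 27 reads at 1%.

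The 12 largest falls were of the 9 genes given here and of Mgp, Plvap and T, each described with its group below. Col10a1, a collagen of hypertrophic cartilage, had 1.75 and 1.26 CPM at 1% oxygen, against 20.5 and 22.8 CPM at 20% (-3.18 ± 0.11), and its exons overlap Nt5dc1 on the opposite strand. Barhl2, a homeobox factor, had 2.92 and 3.44 CPM at 1% oxygen, against 28.3 and 29.0 CPM at 20% (-2.83 ± 0.13). Hoxb8, another homeobox gene, had 6.27 and 4.70 CPM at 1% oxygen, against 31.2 and 30.8 CPM at 20% (-2.31 ± 0.13). In each of these the 1% libraries lay below both 20% libraries, which the rule for naming the largest falls required. Crmp1, a cytoskeletal protein of neurons, had 4.37 and 4.70 CPM at 1% oxygen, against 32.2 and 30.8 CPM at 20% (-2.55 ± 0.09). Aldh1a3, which makes retinoic acid from retinal, had 1.24 and 1.42 CPM at 1% oxygen, against 10.3 and 10.4 CPM at 20% (-2.29 ± 0.14). Falls of the same order were measured for Kirrel2 (-2.22 ± 0.13), a cell adhesion protein, Arhgap9 (-2.01 ± 0.15), a GTPase activating protein, Cbln2 (-1.86 ± 0.13), a synaptic organiser, and Penk (-1.79 ± 0.16), the enkephalin precursor.

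The HIF system itself changed at several points. Hif1a had 251 and 251 CPM at 1% oxygen, against 116 and 118 CPM at 20%. The 2 libraries of each oxygen level lay close together and far from the other level, a log2 fold change of 1.09 ± 0.06 (limma adjusted p = 9.0e-12), and the gene shares exons with the read-through gene Gm49321 on the same strand. Its partner Arnt rose by 0.25 ± 0.05, with 127 and 124 CPM at 1% oxygen, against 106 and 105 CPM at 20%. Epas1 was not called, at 56.3 and 57.4 CPM at 1% oxygen, against 50.9 and 52.4 CPM at 20% (0.14 ± 0.06, adjusted p = 0.057 by limma), though it was called higher under TMM scaling. Arnt2 fell, with 17.6 and 21.3 CPM at 1% oxygen, against 25.4 and 23.9 CPM at 20% (-0.33 ± 0.09), a call lost without replicate 1 at 1% (-0.20) or without replicate 1 at 20% (-0.28). Hif3a, whose shorter products inhibit HIF, had 22.7 and 21.4 CPM at 1% oxygen, against 27.7 and 29.7 CPM at 20% and also fell (-0.37 ± 0.08).

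Among the 12 genes of HIF hydroxylation and degradation, 5 rose and 3 fell, with 3 rising without replicate 1 at 1% or replicate 2 at 20%, and 1 falling without replicate 1 at 20% or under TMM scaling. Egln3, a prolyl hydroxylase known as a HIF target, had 77.5 and 85.8 CPM at 1% oxygen, against 18.1 and 18.8 CPM at 20% (2.08 ± 0.06). Egln1, the main prolyl hydroxylase of most cells, had 129 and 147 CPM at 1% oxygen, against 68.7 and 62.1 CPM at 20% (1.06 ± 0.06). The third of the family, Egln2, went the other way, with 73.4 and 84.3 CPM at 1% oxygen, against 100.5 and 107 CPM at 20% (-0.39 ± 0.08). So 2 of the 3 hydroxylases were higher at 1% oxygen and 1 was lower, with no overlap of libraries in any of them, as in 74% of all genes. Siah2, a ubiquitin ligase that acts on prolyl hydroxylases, rose by 0.29 ± 0.07, and Rbx1, a subunit of the VHL ligase, fell by 0.22 ± 0.06 on the log2 scale, a call lost under TMM scaling.

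Of the 24 tested hypoxia stress targets, 20 rose and 1 fell, with a median log2 fold change of 0.66 against -0.09 over all genes, and of 20 tested angiogenic and vasoactive factors 13 rose and 4 fell, with a median of 1.14. Car9, the cell-surface carbonic anhydrase that exports acid, had 14.6 and 19.98 CPM at 1% oxygen, against 0.368 and 0.382 CPM at 20% (3.72 ± 0.16). Its relative Car12 had 34.0 and 35.2 CPM at 1% oxygen, against 5.88 and 6.02 CPM at 20% (2.36 ± 0.08). Bnip3, a mitophagy receptor, had 89.6 and 98.3 CPM at 1% oxygen, against 15.7 and 14.2 CPM at 20% (2.58 ± 0.06). Carbonic anhydrases and the mitophagy receptor were thus at several times their 20% level in both 1% libraries. Ndrg1, a stress-induced growth regulator, had 259 and 288 CPM at 1% oxygen, against 81.2 and 79.4 CPM at 20% (1.75 ± 0.05). Ero1l, the oxidase that forms disulfide bonds in the endoplasmic reticulum, had 251 and 253 CPM at 1% oxygen, against 87.4 and 88.1 CPM at 20% (1.51 ± 0.05). Fam162a, which is linked to hypoxic cell death, had 228 and 254 CPM at 1% oxygen, against 104 and 104 CPM at 20% (1.21 ± 0.06). The exception was Bhlhe41, a transcriptional repressor of the clock, which fell, with 39.9 and 36.0 CPM at 1% oxygen, against 57.2 and 56.4 CPM at 20% (-0.57 ± 0.08).

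Vegfa, the main angiogenic growth factor, had 153 and 183 CPM at 1% oxygen, against 29.0 and 29.4 CPM at 20% (2.47 ± 0.09). Vegfd, a lymphatic growth factor, had 30.1 and 32.2 CPM at 1% oxygen, against 7.47 and 8.37 CPM at 20% (1.85 ± 0.11), and Angptl4, an inhibitor of lipoprotein lipase, had 105 and 129 CPM at 1% oxygen, against 40.7 and 42.6 CPM at 20% (1.46 ± 0.08). Adm, the vasodilator adrenomedullin, had 70.3 and 80.3 CPM at 1% oxygen, against 7.04 and 5.78 CPM at 20% (3.37 ± 0.09). All of these were separated by oxygen level with no overlap, as were 74% of all genes. Stc2, a secreted glycoprotein, had 13.99 and 17.8 CPM at 1% oxygen, against 1.90 and 1.72 CPM at 20% (2.58 ± 0.13). In the same list the receptor Kdr fell to 4.45 and 4.40 CPM at 1%, against 9.37 and 7.08 CPM at 20% (-0.75 ± 0.14), and Angpt2, a vessel-destabilising ligand, to 1.68 and 2.33 CPM, against 5.02 and 3.68 CPM (-0.83 ± 0.17). Epo, the hormone that defined the pathway, did not pass the filter on low values.

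The promoters of 4 strong risers, Car9, Slc16a3, Adm and Stc2, show where the core letters of the HIF motif lie beside the start site. Each window runs from 250 bases before to 50 after the start of the gene, 5′ to 3′ on the strand of the gene, from RefSeq (GRCm38.p6), with ACGTG or GCGTG on either strand (CACGT or CACGC on the strand shown) in capitals. These are the 4 largest rises, among members of the hypoxia, angiogenic, glucose transport and glycolysis lists, whose window holds the motif.
Car9, chr4:43506776-43507075 on the plus strand: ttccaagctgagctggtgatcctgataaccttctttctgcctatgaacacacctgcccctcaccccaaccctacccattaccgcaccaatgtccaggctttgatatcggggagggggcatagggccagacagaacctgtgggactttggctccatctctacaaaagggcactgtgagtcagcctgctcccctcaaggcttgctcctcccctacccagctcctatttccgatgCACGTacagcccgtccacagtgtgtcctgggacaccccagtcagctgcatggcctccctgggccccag
Slc16a3, chr11:120948817-120949116 on the plus strand: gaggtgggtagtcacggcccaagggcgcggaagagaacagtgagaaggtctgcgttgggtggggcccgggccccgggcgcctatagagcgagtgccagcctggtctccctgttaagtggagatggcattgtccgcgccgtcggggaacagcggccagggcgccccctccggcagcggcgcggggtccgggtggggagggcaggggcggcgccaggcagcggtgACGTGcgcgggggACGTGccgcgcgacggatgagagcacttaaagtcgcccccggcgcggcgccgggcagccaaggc
Adm, chr7:110627407-110627706 on the plus strand: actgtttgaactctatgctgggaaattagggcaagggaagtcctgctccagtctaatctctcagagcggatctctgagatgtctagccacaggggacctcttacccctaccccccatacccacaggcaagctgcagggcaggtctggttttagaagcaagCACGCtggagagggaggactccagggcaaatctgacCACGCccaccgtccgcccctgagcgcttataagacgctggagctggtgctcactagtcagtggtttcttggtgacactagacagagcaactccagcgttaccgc
Stc2, chr11:31370012-31370311 on the minus strand: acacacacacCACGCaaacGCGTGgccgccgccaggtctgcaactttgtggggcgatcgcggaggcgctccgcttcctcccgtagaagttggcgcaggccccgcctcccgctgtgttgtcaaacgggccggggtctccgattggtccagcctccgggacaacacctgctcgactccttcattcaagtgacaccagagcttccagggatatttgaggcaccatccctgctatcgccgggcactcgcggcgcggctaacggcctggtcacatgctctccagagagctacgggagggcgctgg
The Car9 window holds 1 match, which starts 18 bases before the start site, and the Slc16a3 window 2, at 27 and 14 bases before it. The Adm matches start 90 and 54 bases before the start site, and the Stc2 matches 240 and 231 bases before it. The motif is common: it was found in 8858 of 14803 windows (59.84%) of the tested genes that matched the table, in 65 of 86 windows (75.58%) of the 60 matched members of those 5 lists, and in 45 of 61 windows (73.77%) of the members that rose. A match is a description of letters and not a bound site.

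Genes of glucose uptake and lactate export rose at specific steps. Of the 9 tested transporters 5 rose and none fell. Slc16a3, the lactate exporter MCT4 whose promoter is shown above, had 91.2 and 114 CPM at 1% oxygen, against 6.80 and 7.31 CPM at 20% (3.67 ± 0.08, limma adjusted p = 4.4e-17). Bsg, the chaperone that brings lactate transporters to the membrane, had 628 and 699 CPM at 1% oxygen, against 278 and 276 CPM at 20% (1.26 ± 0.05), and Slc16a1, the broadly expressed transporter MCT1, had 215 and 184 CPM at 1% oxygen, against 114 and 107 CPM at 20% (0.84 ± 0.06). MCT4 had the largest fold of the list, and its chaperone and MCT1 rose with it. Slc2a1, the main basal glucose transporter, had 207 and 224 CPM at 1% oxygen, against 84.2 and 89.3 CPM at 20% (1.30 ± 0.05). Slc16a7 rose at a low level, with 1.82 and 1.47 CPM at 1% oxygen, against 0.858 and 0.765 CPM at 20% (0.54 ± 0.18).

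Most glycolytic enzymes rose. Of the 12 tested enzymes from hexokinase to aldolase, 7 rose and 2 fell, with a median of 0.39, and of the 10 from triose phosphates to lactate 8 rose and none fell, with a median of 0.82. Hk1, the first enzyme, rose by 0.53 ± 0.05, while Hk2, the hexokinase usually counted as the HIF-responsive one, fell, with 191 and 197 CPM at 1% oxygen, against 225 and 233 CPM at 20% (-0.24 ± 0.05). Pfkl, the liver-type phosphofructokinase, had 129 and 171 CPM at 1% oxygen, against 26.5 and 26.1 CPM at 20% (2.45 ± 0.09), and its 1% libraries differed from each other more than its 20% libraries. Pfkp, the platelet type, had 134 and 136 CPM at 1% oxygen, against 64.1 and 65.0 CPM at 20% (1.06 ± 0.05) and overlaps Pitrm1 on the opposite strand. Of the regulators of phosphofructokinase, Pfkfb3 rose, with 67.3 and 71.0 CPM at 1% oxygen, against 25.8 and 28.5 CPM at 20% (1.32 ± 0.07), and Pfkfb4 had 6.996 and 7.23 CPM at 1% oxygen, against 8.45 and 9.27 CPM at 20% (-0.28 ± 0.12), a fall that was not called under TMM scaling.

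Below aldolase, Pgk1, which makes the first ATP of the pathway, had 98.8 and 116 CPM at 1% oxygen, against 21.3 and 20.9 CPM at 20% (2.29 ± 0.09). Eno2 had 50.8 and 61.3 CPM at 1% oxygen, against 7.96 and 7.65 CPM at 20% (2.69 ± 0.08), a larger fold than the more abundant Eno1, with 293 and 342 CPM at 1% oxygen, against 171 and 172 CPM at 20% (0.88 ± 0.06). Both encode enolases, and both were separated by oxygen level. Ldha, which turns pyruvate into lactate, had 369 and 458 CPM at 1% oxygen, against 104 and 107 CPM at 20% (1.95 ± 0.08). Tpi1 rose by 1.75 ± 0.07 and Pgam1 by 0.76 ± 0.06; for Tpi1, exons overlap Spsb2 on the opposite strand. Upstream, Aldoa rose by 0.99 ± 0.06 and Gpi1 by 0.39 ± 0.05. Branches of the pathway were mixed. Of 12 glycogen genes 5 rose and 2 fell, led by Ppp1r3b, a glycogen-targeting subunit of protein phosphatase 1, with 11.2 and 14.3 CPM at 1% oxygen, against 1.47 and 1.63 CPM at 20% (2.42 ± 0.13), and by the glycogen synthase Gys1 (0.84 ± 0.07). Of 8 pentose phosphate enzymes, H6pd of the endoplasmic reticulum rose (0.78 ± 0.09) and 3 fell, among them Taldo1 (-0.47 ± 0.05) and Pgls (-0.48 ± 0.10). These counts are near the shares of all genes, and under TMM scaling 2 rose and 2 fell.

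**Figure D3:**
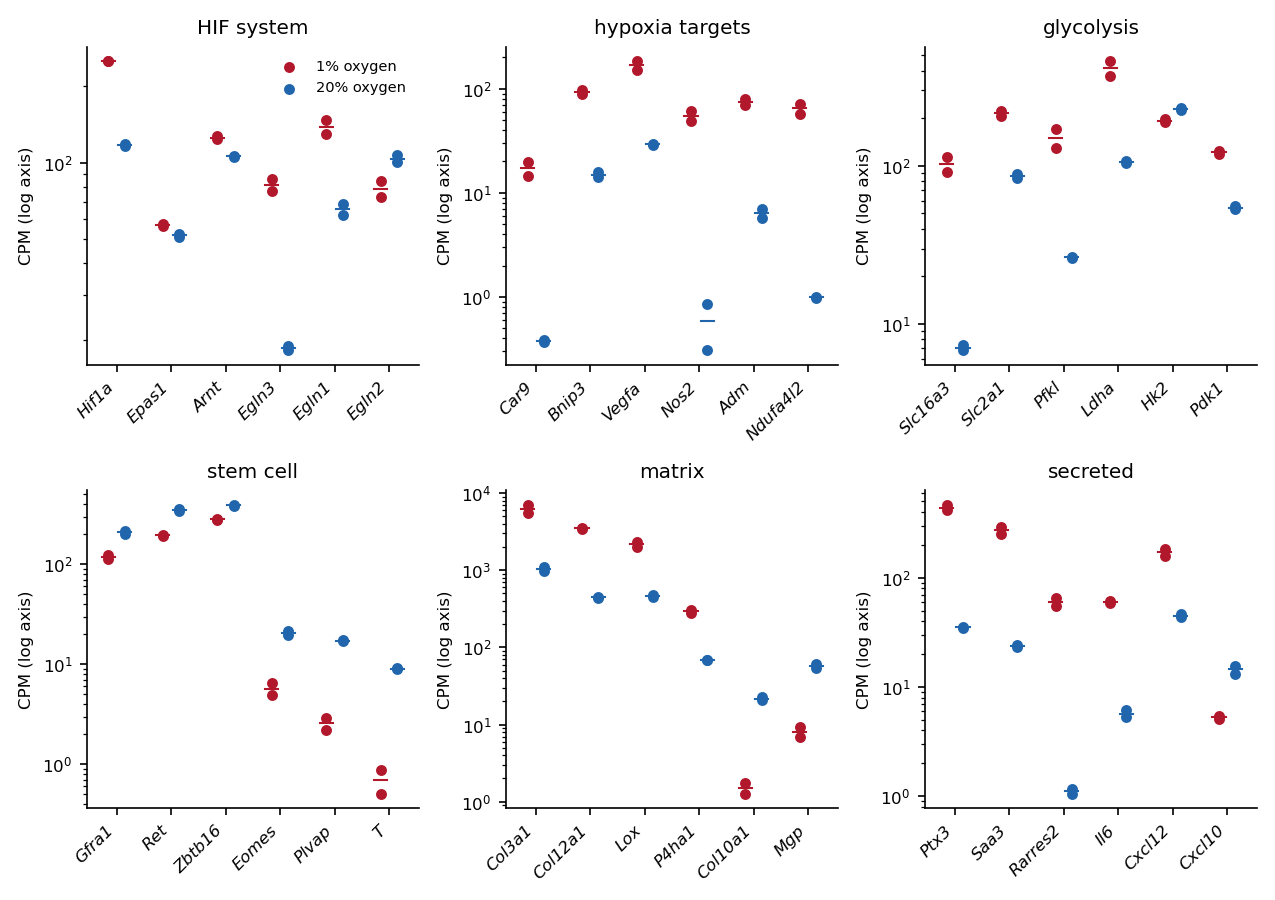
CPM on a log axis of 36 named genes in the 4 Hif1a wild type libraries, in 6 groups, with 1% oxygen (red) left of 20% oxygen (blue) for each gene, 1 point per library and a short line at the mean. The libraries of the 2 oxygen levels do not overlap in any of these genes, which also holds for 74% of all tested genes. Hk2, Egln2, Gfra1, Ret, Zbtb16, Eomes, Plvap, T, Col10a1, Mgp and Cxcl10 lie lower at 1% oxygen.

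In the genes that control entry of pyruvate into mitochondria 2 of 11 rose and 3 fell. Pdk1, a kinase that shuts pyruvate dehydrogenase, had 125 and 119 CPM at 1% oxygen, against 55.7 and 53.02 CPM at 20% (1.15 ± 0.05), and Pdk4, which does the same in fasting, had 15.2 and 16.7 CPM at 1% oxygen, against 6.003 and 8.56 CPM at 20% (1.05 ± 0.16). The subunits Pdhb (-0.24 ± 0.05) and Pdhx (-0.34 ± 0.06) of the dehydrogenase complex fell slightly, as did the phosphatase Pdp1 (-0.35 ± 0.08), and the other 3 subunits were not called. Of the 20 tested TCA cycle genes 2 rose and 13 fell, with a median of -0.16; under TMM scaling the falls numbered 5. The risers were the isocitrate dehydrogenases Idh1 (0.44 ± 0.05) and Idh2 (0.68 ± 0.09), which make NADPH, and the falls included Idh3g (-0.50 ± 0.06) of the NAD-linked isocitrate dehydrogenase and Dlst (-0.42 ± 0.05) of the oxoglutarate dehydrogenase complex. Of 36 nuclear complex I subunits 3 rose and 17 fell, and 6 rose and 11 fell under TMM scaling, with 5 rising without replicate 1 at 1%. The largest such fall was Ndufa9, with 98.2 and 95.9 CPM at 1% oxygen, against 132 and 131 CPM at 20% (-0.43 ± 0.05), and against them Ndufv3 rose (0.60 ± 0.06). Of 34 subunits of complexes III to V 2 rose and 10 fell, a share of falls below the 34.6% of all genes; 6 fell without replicate 1 at 20%, 1 rose without replicate 1 at 1% or either replicate at 20%, and the split turned to 7 and 5 under TMM scaling.

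Of 6 genes listed for the exchange of respiratory subunits at low oxygen, 3 rose and 2 fell (1 fell under TMM scaling), and the rises were larger than the falls. Besides Ndufa4l2, described above, Cox4i2, the lung-type cytochrome oxidase subunit, had 3.06 and 5.01 CPM at 1% oxygen, against 0.551 and 0.526 CPM at 20% (1.68 ± 0.17). Its constitutive counterpart Cox4i1 had 352 and 389 CPM at 1% oxygen, against 405 and 405 CPM at 20% (-0.13 ± 0.05), a fall not called under TMM scaling, and Ndufa4, which Ndufa4l2 resembles, had 78.5 and 77.3 CPM at 1% oxygen, against 93.2 and 90.7 CPM at 20% (-0.24 ± 0.05). Higd1a, a respiratory assembly factor induced by hypoxia, rose by 0.69 ± 0.06, and Lonp1, the protease that degrades Cox4i1 in low oxygen, was not called, with 190.2 and 204 CPM at 1% oxygen, against 195 and 190.5 CPM at 20%. The mitochondrial ribosome fell in breadth: of 77 tested proteins 1 rose and 46 fell, with a median of -0.22 (30 falls under TMM scaling and 29 without replicate 1 at 20%), the farthest among those named being Mrpl41, with 19.09 and 18.8 CPM at 1% oxygen, against 27.3 and 29.1 CPM at 20% (-0.55 ± 0.08). Cytosolic ribosomal proteins did not follow, with 28 of 83 higher and 3 lower, 53 higher and 2 lower under TMM scaling, 14 higher without replicate 2 at 20% and 6 lower without replicate 2 at 1%. Of the 7 testable genes of the mitochondrial genome 3 rose (1 without replicate 1 at 1% or at 20%, and 5 without replicate 2 at 1%), among them mt-Co1, with 7836 and 5951 CPM at 1% oxygen, against 5280.1 and 5498 CPM at 20% (0.34 ± 0.10); replicate 1 at 1% stood well above the other 3 libraries, which lay closer together, and without it the change was 0.14 and not called. The call was also lost without replicate 1 at 20% (0.31). Top1mt, the mitochondrial topoisomerase, fell, with 34.9 and 33.8 CPM at 1% oxygen, against 52.6 and 55.3 CPM at 20% (-0.63 ± 0.07). Mitophagy genes were mixed, with 5 of 17 higher and 3 lower (1 lower under TMM scaling); Bnip3 led, Pink1 rose by 0.33 ± 0.08 and Phb2, an inner-membrane receptor, fell by 0.47 ± 0.04.

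Of 15 serine and one-carbon enzymes 5 rose and 7 fell, but 3 rose without either replicate at 20%, and 4 fell without replicate 1 at 20%. Aldh1l2, the mitochondrial formyltetrahydrofolate dehydrogenase that yields NADPH, had 32.5 and 34.1 CPM at 1% oxygen, against 2.94 and 2.63 CPM at 20% (3.18 ± 0.11), with D10Wsu102e on the opposite strand of its exons. Mthfd1l, a mitochondrial folate enzyme, rose by 0.70 ± 0.08. Shmt2, the mitochondrial serine hydroxymethyltransferase, fell, with 117 and 127 CPM at 1% oxygen, against 189 and 180.3 CPM at 20% (-0.59 ± 0.06), as did Phgdh (-0.39 ± 0.06) and Psat1 (-0.30 ± 0.05), the first steps of serine synthesis, and Tyms (-0.55 ± 0.09), which makes thymidylate.

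Among enzymes that consume oxygen themselves, most of those that act on collagen rose. Of 12 tested collagen hydroxylase genes 10 rose and none fell, with a median of 0.69, and all 5 lysyl oxidases rose, 3 of them without replicate 2 at 1%. P4ha1, the catalytic subunit of collagen prolyl hydroxylase, had 278 and 308 CPM at 1% oxygen, against 69.0 and 68.1 CPM at 20% (2.08 ± 0.07). P4ha2, its second form, had 245 and 297 CPM at 1% oxygen, against 57.9 and 63.0 CPM at 20% (2.14 ± 0.07), and Plod2, a lysyl hydroxylase, had 363 and 369.6 CPM at 1% oxygen, against 115 and 112 CPM at 20% (1.69 ± 0.04). Each was at several times its 20% level in both 1% libraries. Lox, which cross-links collagen and elastin, had 2015 and 2309 CPM at 1% oxygen, against 456 and 483 CPM at 20% (2.20 ± 0.10). Loxl2 had 406 and 463 CPM at 1% oxygen, against 113 and 118 CPM at 20% (1.90 ± 0.08), and Loxl1, Loxl3 and Loxl4 rose less, by 0.61, 0.35 and 0.41. Of the 3 weaker members, Loxl1 had 106 and 139 CPM at 1% oxygen, against 76.1 and 82.7 CPM at 20%. Without replicate 2 at 1%, Loxl3 (0.18) and Loxl4 (0.34) were not called, and Loxl4 was also lost without replicate 1 at 20% (0.40). Oxygen-dependent histone demethylases were mixed, with 8 of 20 higher and 6 lower. Kdm4c, a demethylase of histone H3 lysine 9, had 23.8 and 20.2 CPM at 1% oxygen, against 12.5 and 14.1 CPM at 20% (0.69 ± 0.09), and Kdm2b, of histone H3 lysine 36, fell by 0.37 ± 0.06. Among DNA methylation enzymes the 5-methylcytosine oxidases Tet1 and Tet2 rose, Tet1 to 10.7 and 10.1 CPM at 1%, against 4.41 and 5.45 CPM at 20% (0.95 ± 0.12), and Tet2 to 17.2 and 17.4 CPM, against 9.99 and 9.80 CPM (0.75 ± 0.10). The methyltransferases Dnmt1, Dnmt3a and Dnmt3b and the cofactor Dnmt3l fell, with log2 fold changes of -0.37 ± 0.05 for Dnmt3a and -0.68 ± 0.12 for Dnmt3l.

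Genes of stem cell self-renewal fell. Of the 13 genes of the GDNF receptor and the factors it induces, none rose and 11 fell, with a median of -0.53, and of 22 further factors of undifferentiated spermatogonia 2 rose and 14 fell, with a median of -0.42. Gfra1, the GDNF binding receptor, had 124 and 113 CPM at 1% oxygen, against 216 and 200.1 CPM at 20% (-0.81 ± 0.07). Ret, the signalling receptor, had 198 and 193 CPM at 1% oxygen, against 338 and 353 CPM at 20% (-0.82 ± 0.04, limma adjusted p = 9.0e-12). Both receptors were lower in both 1% libraries than in either 20% library. Among GDNF-induced genes, Bcl6b had 114 and 109 CPM at 1% oxygen, against 166 and 157 CPM at 20% (-0.53 ± 0.07), and Pou3f1 fell by 0.55 ± 0.07. T, the T-box factor brachyury, had 0.875 and 0.506 CPM at 1% oxygen, against 9.01 and 9.08 CPM at 20% (-2.58 ± 0.14), the largest fall of both lists. Nefm, an intermediate filament gene, had 63.1 and 67.6 CPM at 1% oxygen, against 153 and 141 CPM at 20% (-1.16 ± 0.08) and overlaps Nefl on the opposite strand. Gdnf itself rose at a low level, with 6.56 and 7.54 CPM at 1% oxygen, against 2.02 and 2.25 CPM at 20% (1.36 ± 0.14). Which cells of these mixed cultures it came from was not tested.

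Zbtb16, the transcription factor PLZF of undifferentiated spermatogonia, had 279 and 282 CPM at 1% oxygen, against 385 and 393 CPM at 20% (-0.47 ± 0.05). Plvap, a membrane protein of a stem cell subset, had 2.19 and 2.93 CPM at 1% oxygen, against 17.3 and 17.1 CPM at 20% (-2.36 ± 0.12), and Eomes, a T-box factor of another such subset, had 6.49 and 4.96 CPM at 1% oxygen, against 21.3 and 19.6 CPM at 20% (-1.68 ± 0.12). Among the named members the falls were steepest in genes that were already low at 20% oxygen. Members were named for a small adjusted p or a large fold, which can give this pattern by itself. Lin28a, an RNA-binding protein, fell by 0.53 ± 0.05, and the surface proteins Cd9 (-0.47 ± 0.04) and Mcam (-0.43 ± 0.05) fell as well. Itga6 and Thy1, surface proteins used to enrich stem cells, rose, though Thy1 is also made by fibroblasts, Itga6 to 131 and 119.8 CPM at 1%, against 91.5 and 103 CPM at 20% (0.36 ± 0.07). Of 15 genes of FGF receptors and ERK feedback 3 rose, near the 18.4% of all genes, and 8 fell, and 1 rose without replicate 2 at 1%. The ERK feedback genes Spry4, with 65.9 and 58.2 CPM at 1% oxygen, against 118 and 106 CPM at 20% (-0.85 ± 0.08), Dusp5 (-0.73 ± 0.06), Dusp4 (-0.72 ± 0.08) and Etv4 (-0.48 ± 0.06) fell, while Spry2 (0.38 ± 0.08), Fgfr3 (0.41 ± 0.12) and Spred3 (0.45 ± 0.12) rose.

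Differentiation genes did not rise in place of these. Of 18 tested, 3 rose and 8 fell (5 under TMM scaling). Kit, the receptor of differentiating spermatogonia, had 68.0 and 65.0 CPM at 1% oxygen, against 96.9 and 89.7 CPM at 20% (-0.48 ± 0.06), and Stra8, which retinoic acid induces before meiosis, was not called, with 69.6 and 81.9 CPM at 1% oxygen, against 66.9 and 68.0 CPM at 20% (0.16 ± 0.08, limma adjusted p = 0.08), though it was called higher under TMM scaling. The retinoic acid genes changed in opposite directions: Cyp26b1, which degrades retinoic acid, had 27.6 and 29.8 CPM at 1% oxygen, against 9.01 and 8.70 CPM at 20% (1.59 ± 0.13), while Cyp26a1, with the same activity, had 2.26 and 1.57 CPM at 1% oxygen, against 7.66 and 5.78 CPM at 20% (-1.41 ± 0.17). The binding proteins Crabp1 (0.74 ± 0.07) and Crabp2 (0.82 ± 0.12) rose, and Neurog3, a factor of early progenitors, fell at a low level (-0.79 ± 0.18). Germ cell identity genes were close to level: Ddx4, the germ cell helicase, had 606 and 537 CPM at 1% oxygen, against 514 and 479 CPM at 20% (0.20 ± 0.06), a call lost without replicate 1 at 1% (0.12) or replicate 2 at 20% (0.15), and Dnd1, which protects germ cell messages, fell by 0.53 ± 0.07. Of 18 piRNA genes 1 rose and 8 fell (5 fell without replicate 2 at 1%, without replicate 1 at 20% or under TMM scaling), among them Tdrd7 (-0.55 ± 0.04) and Piwil1 (-0.61 ± 0.09).

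Meiotic genes tended upward. Of 30 tested, 11 rose and 5 fell, or 15 and 3 under TMM scaling, with a median of 0.11. Meioc, which holds cells in meiotic prophase, had 40.9 and 41.4 CPM at 1% oxygen, against 24.0 and 23.04 CPM at 20% (0.78 ± 0.08). Sycp2 of the synaptonemal complex had 153 and 137 CPM at 1% oxygen, against 95.5 and 90.0 CPM at 20% (0.64 ± 0.07), and the cohesins Stag3 and Smc1b rose by 0.53 ± 0.05 and 0.39 ± 0.06. Sycp3, also of the synaptonemal complex, had 56.2 and 59.2 CPM at 1% oxygen, against 39.8 and 43.2 CPM at 20% (0.47 ± 0.10). Against them Msh5, a crossover factor, fell by 0.53 ± 0.10.

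Matrix genes held some of the most abundant risers. Of 42 tested collagen chains 21 rose and 11 fell. Col12a1, a fibril-associated collagen, had 3415 and 3569 CPM at 1% oxygen, against 439 and 448 CPM at 20% (2.97 ± 0.08). Col3a1, of reticular fibres, had 5535 and 7033 CPM at 1% oxygen, against 980.3 and 1111 CPM at 20% (2.58 ± 0.11), and Col1a1, the main chain of type I collagen, had 4727 and 6438 CPM at 1% oxygen, against 1364 and 1512 CPM at 20% (1.94 ± 0.12). In Col3a1 and Col1a1 replicate 2 was higher than replicate 1 at both oxygen levels, and the groups did not overlap. The small leucine-rich proteoglycans, which bind collagen fibrils, rose in 6 of 8 tested members, Aspn with 76.0 and 73.7 CPM at 1% oxygen, against 8.21 and 8.94 CPM at 20% (2.99 ± 0.09) and Ogn with 46.3 and 50.5 CPM at 1% oxygen, against 8.70 and 8.17 CPM at 20% (2.39 ± 0.08); Aspn overlaps Cenpp on the opposite strand. Mgp, a matrix inhibitor of calcification that fibroblasts also make, went against them, with 6.996 and 9.26 CPM at 1% oxygen, against 53.4 and 60.9 CPM at 20% (-2.68 ± 0.15), as did Col13a1, a transmembrane collagen (-0.95 ± 0.08). Matrix metalloproteinases and their inhibitors rose in 11 and fell in 7 of 22 (3 fell without replicate 1 at 1% and 4 without replicate 2 at 20%), Mmp3 with 571 and 539 CPM at 1% oxygen, against 213 and 223 CPM at 20% (1.34 ± 0.12) and Mmp2 with 332 and 381 CPM at 1% oxygen, against 139 and 143 CPM at 20% (1.32 ± 0.09).

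Of the 24 feeder markers 19 rose and 1 fell, and several of them are the collagens and proteoglycans above; their summed levels, 23792 and 30007 CPM at 1% against 9136 and 9851 CPM at 20%, moved with these matrix genes and with the secreted proteins below, and their part in those results was not tested. The 1 feeder marker that fell was Pdgfrb, a fibroblast receptor, with 73.9 and 90.1 CPM at 1% oxygen, against 95.6 and 101 CPM at 20% (-0.26 ± 0.10). In a separate list of 12 smooth muscle contractile genes 1 rose (4 without replicate 1 at 1%) and 2 fell. Acta2 had 103 and 134 CPM at 1% oxygen, against 141 and 141 CPM at 20% (-0.26 ± 0.11). Under TMM scaling the falls of Pdgfrb and Acta2 were not called. Des, an intermediate filament of muscle, fell more clearly, with 5.83 and 7.79 CPM at 1% oxygen, against 14.9 and 13.2 CPM at 20% (-0.96 ± 0.12). Of 12 targets of the YAP and TEAD mechanical pathway 6 rose, Ccn1 with 532 and 647 CPM at 1% oxygen, against 148 and 158 CPM at 20% (1.93 ± 0.12) and Ccn2 with 346 and 419 CPM at 1% oxygen, against 118 and 116 CPM at 20% (1.69 ± 0.11).

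Secreted defence proteins rose together. Of 19 listed acute-phase and defence proteins 14 passed the filter on low values, and these 14 rose, with a median of 2.26 over the 14. As in every list, the members were chosen with earlier results of these data known. Ptx3, a pentraxin of tissue inflammation, had 415 and 465 CPM at 1% oxygen, against 35.7 and 35.04 CPM at 20% (3.60 ± 0.11). Saa3, a serum amyloid made outside the liver, had 253 and 289.9 CPM at 1% oxygen, against 24.4 and 23.2 CPM at 20% (3.45 ± 0.12), and Serpina3n, a serine protease inhibitor, had 177 and 182 CPM at 1% oxygen, against 19.6 and 19.2 CPM at 20% (3.14 ± 0.09). These members were named for a small adjusted p, so a clear separation by oxygen level follows from that choice. Complement genes rose too, C3 with 113 and 122 CPM at 1% oxygen, against 35.04 and 34.8 CPM at 20% (1.72 ± 0.07) and C1s1 with 93.0 and 87.4 CPM at 1% oxygen, against 20.3 and 19.5 CPM at 20% (2.13 ± 0.09).

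Of 19 tested chemokine and IL6 family genes 13 rose and 4 fell, with a median of 1.07. Il6, the cytokine that drives acute-phase genes, had 59.1 and 61.8 CPM at 1% oxygen, against 5.27 and 6.12 CPM at 20% (3.20 ± 0.11). Cxcl1 and Cxcl5, which attract neutrophils, rose, Cxcl1 with 331 and 392 CPM at 1% oxygen, against 67.0 and 68.2 CPM at 20% (2.40 ± 0.12) and Cxcl5 with 235 and 277 CPM at 1% oxygen, against 48.1 and 48.4 CPM at 20% (2.38 ± 0.13). Cxcl12, a stem cell chemoattractant, had 158 and 185 CPM at 1% oxygen, against 43.4 and 46.3 CPM at 20% (1.91 ± 0.10). Against these, Cxcl10, induced by interferon, fell, with 5.10 and 5.46 CPM at 1% oxygen, against 15.7 and 13.3 CPM at 20% (-1.30 ± 0.15), and it overlaps Art3 on the opposite strand. Interferon-stimulated genes did not join the rise, with 3 of 21 higher and 5 lower. Of 16 antigen presentation genes 4 rose and 10 fell, among them Psmb8 (-0.80 ± 0.10) and Psmb9 (-0.88 ± 0.09) of the immunoproteasome; Psmb9 overlaps Tap1, which fell by 0.59 ± 0.08.

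Growth factors of the niche rose in 9 of 15 tested and fell in 4, or in 2 without either replicate at 1% or without replicate 2 at 20%. Hgf, a mitogen made by mesenchyme, had 16.5 and 17.6 CPM at 1% oxygen, against 2.63 and 2.49 CPM at 20% (2.34 ± 0.15). Kitl, the ligand of KIT, had 53.1 and 57.9 CPM at 1% oxygen, against 17.9 and 17.5 CPM at 20% (1.59 ± 0.08), and Fgf7 rose by 1.36 ± 0.10. Csf1, a colony stimulating factor known to act on spermatogonial stem cells, fell, with 142 and 192 CPM at 1% oxygen, against 236 and 231 CPM at 20% (-0.50 ± 0.13), its 1% libraries standing apart from each other. Without replicate 1 at 1% the change was -0.28 and not called. Insulin-like growth factors and their binding proteins rose in 7 of 10, Igfbp5 with 219 and 265 CPM at 1% oxygen, against 68.7 and 79.3 CPM at 20% (1.69 ± 0.11), Igfbp3 with 252 and 249.5 CPM at 1% oxygen, against 135 and 137 CPM at 20% (0.88 ± 0.10) and Igf1 with 10.1 and 6.78 CPM at 1% oxygen, against 2.57 and 2.25 CPM at 20% (1.45 ± 0.16). Igfbp1, a well-known hypoxia target of liver, did not pass the filter.

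Lipid genes moved with no single direction. Of 26 tested genes of cholesterol synthesis and uptake 12 rose and 2 fell, with a median of 0.20 (17 rose under TMM scaling). The oxygen-using steps Msmo1, Cyp51, Sc5d and Sqle rose: Msmo1 had 113 and 90.0 CPM at 1% oxygen, against 62.2 and 57.7 CPM at 20% (0.74 ± 0.08), Cyp51 had 123 and 119 CPM at 1% oxygen, against 77.3 and 79.4 CPM at 20% (0.62 ± 0.05), and Sc5d and Sqle rose by 0.51 ± 0.06 and 0.47 ± 0.05. Fatty acid synthesis had 3 of 15 higher and 6 lower (3 lower under TMM scaling), near the shares of all genes, with Fasn, the fatty acid synthase, at 637 and 662 CPM at 1% oxygen, against 799 and 826 CPM at 20% (-0.32 ± 0.06) and the desaturase Scd2 at 460.3 and 486 CPM at 1% oxygen, against 358 and 359.6 CPM at 20% (0.40 ± 0.05). Of 14 tested genes of lipid droplets and fatty acid uptake 5 rose and 6 fell, with a median of -0.11 (5 fell under TMM scaling). The risers included Fabp4, given above, and Fabp5, with 43.4 and 48.3 CPM at 1% oxygen, against 4.72 and 5.78 CPM at 20% (2.91 ± 0.11). Lpl, the lipoprotein lipase, also rose, with 53.8 and 48.3 CPM at 1% oxygen, against 13.2 and 12.6 CPM at 20% (1.90 ± 0.10). Of 19 genes of mitochondrial fatty acid oxidation 1 rose and 8 fell, Cpt1a, the gate of the pathway, with 185 and 186 CPM at 1% oxygen, against 236 and 236 CPM at 20% (-0.35 ± 0.04).

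Of 18 iron genes 11 rose and 2 fell. Steap4, a metalloreductase, had 146 and 176 CPM at 1% oxygen, against 9.01 and 11.8 CPM at 20% (3.83 ± 0.13). Slc39a14, an iron and zinc importer, had 205 and 224 CPM at 1% oxygen, against 78.4 and 73.8 CPM at 20% (1.48 ± 0.06), and Tfrc, the transferrin receptor, had 516 and 427 CPM at 1% oxygen, against 326 and 318 CPM at 20% (0.54 ± 0.07). Fth1, the ferritin heavy chain, rose by 0.39 ± 0.06. Of 15 genes that remove superoxide and peroxide 7 rose and 3 fell, or 1 fell without replicate 2 at 20% or under TMM scaling. Gpx3, a secreted glutathione peroxidase, had 102 and 116 CPM at 1% oxygen, against 30.7 and 27.5 CPM at 20% (1.87 ± 0.09), and Sod3, the extracellular superoxide dismutase, had 124 and 153 CPM at 1% oxygen, against 49.8 and 51.2 CPM at 20% (1.43 ± 0.12). The fallers included Gpx1 (-0.29 ± 0.07) and Gpx4 (-0.18 ± 0.06), both intracellular glutathione peroxidases; the call of Gpx4 was lost without replicate 2 at 1% (-0.16), without replicate 2 at 20% (-0.15) or under TMM scaling. Nqo1, the quinone reductase used as a marker of NRF2 activity, fell, with 8.82 and 8.55 CPM at 1% oxygen, against 29.6 and 30.7 CPM at 20% (-1.69 ± 0.13), and Gsta4, a glutathione transferase, with 18.8 and 19.02 CPM at 1% oxygen, against 45.8 and 40.4 CPM at 20% (-1.15 ± 0.09). In the whole list 9 of 19 NRF2 pathway genes rose and 2, Nqo1 and Gsta4, fell; the rises numbered 5 without replicate 1 at 1%, 5 without replicate 1 at 20% and 4 without replicate 2 at 20%. Gclm, of glutathione synthesis, rose by 0.40 ± 0.06 and Hmox1, heme oxygenase, by 0.33 ± 0.06.

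Immediate early genes, which respond within minutes to growth factors and to handling, rose in 18 of 22 and fell in 1, with a median of 0.98. Fosb had 721 and 803 CPM at 1% oxygen, against 142 and 149.9 CPM at 20% (2.37 ± 0.11). Fos had 592 and 656 CPM at 1% oxygen, against 158 and 169.9 CPM at 20% (1.92 ± 0.08), and Atf3, which is also a stress gene, had 67.0 and 83.7 CPM at 1% oxygen, against 14.8 and 14.9 CPM at 20% (2.26 ± 0.09). They are the best known of the group, and all were separated by oxygen level. The time between opening the bags and lysis is not stated, and the part of handling was not tested. Of 26 unfolded protein and integrated stress genes 13 rose and 1 fell. Hspa5, the main chaperone of the endoplasmic reticulum, had 1041 and 1063 CPM at 1% oxygen, against 713 and 678 CPM at 20% (0.60 ± 0.05), and Ddit3, a pro-apoptotic transcription factor of the same response, rose by 0.91 ± 0.11. Asns, the asparagine synthetase that ATF4 induces, went against them, with 56.4 and 56.0 CPM at 1% oxygen, against 111 and 103 CPM at 20% (-0.91 ± 0.06). Of 17 heat shock chaperones 4 rose and 6 fell, near the shares of all genes; Dnajb1 rose by 0.67 ± 0.05 and Cryab fell by 0.96 ± 0.13.

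None of 29 replication genes rose and 21 fell, with a median of -0.22 (13 fell under TMM scaling). Cdt1, which loads the replicative helicase, had 97.2 and 106 CPM at 1% oxygen, against 141 and 148 CPM at 20% (-0.51 ± 0.06), and Mcm5, a helicase subunit, fell by 0.39 ± 0.04. Of 28 mitosis and spindle genes 1 rose and 10 fell, near the 34.6% of all genes, and 6 fell without replicate 2 at 1%, without replicate 1 at 20% or under TMM scaling. Of 10 cyclins 1 rose and 2 fell, with 3 rising without replicate 2 at 1% and 4 under TMM scaling. The falls were of D-type cyclins: Ccnd1 had 115 and 149 CPM at 1% oxygen, against 339 and 349.6 CPM at 20% (-1.39 ± 0.10), and Ccnd2, a cyclin that GDNF and FGF2 are known to maintain in these cells, had 542 and 538 CPM at 1% oxygen, against 920.5 and 931 CPM at 20% (-0.78 ± 0.05). Ccnb3, a meiotic B-type cyclin, rose, with 48.0 and 39.3 CPM at 1% oxygen, against 24.7 and 26.4 CPM at 20% (0.74 ± 0.10). The mitotic cyclins Ccnb1 and Ccnb2 were not called, with 0.11 and 0.12, and were called higher under TMM scaling. Of the 8 CDK inhibitors, Cdkn1a, the p53 target p21, rose, with 255 and 319 CPM at 1% oxygen, against 111 and 120.1 CPM at 20% (1.30 ± 0.10), and Cdkn1c rose by 0.38 ± 0.08. The other 6 were not called: Cdkn1b, Cdkn2a, Cdkn2b, Cdkn2c, Cdkn2d and Cdkn3 had log2 fold changes between -0.15 and 0.19. Of 22 p53 genes 11 rose and 5 fell (3 fell without replicate 1 at 1% or either replicate at 20%, and 2 under TMM scaling), among them Gadd45a (0.91 ± 0.08), which rose, and Perp (-1.01 ± 0.12), which fell. In the BCL2 family 3 of 15 rose and 7 fell, with the survival factor Mcl1 at 201 and 207 CPM at 1% oxygen, against 122 and 125 CPM at 20% (0.72 ± 0.06) and the survival factor Bcl2l1 at 66.0 and 71.7 CPM at 1% oxygen, against 97.8 and 102 CPM at 20% (-0.53 ± 0.06).

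Of 9 tested genes of simple epithelia, at low levels, 2 rose and 4 fell. The keratin Krt18 had 6.27 and 6.07 CPM at 1% oxygen, against 15.6 and 15.01 CPM at 20% (-1.18 ± 0.09) and Krt8 had 1.31 and 0.809 CPM at 1% oxygen, against 5.39 and 6.55 CPM at 20% (-1.76 ± 0.15), and Krt7 (-0.70 ± 0.13) and the tight junction gene Cldn4 (-1.12 ± 0.12) fell too. Muc2, a secreted mucin, rose, with 5.47 and 5.36 CPM at 1% oxygen, against 0.490 and 0.335 CPM at 20% (2.19 ± 0.15), and so did the keratin Krt19 (0.47 ± 0.14), a call lost without replicate 2 at 1% (0.38) or replicate 2 at 20% (0.40). Replication-dependent histones, whose messages lack a poly(A) tail and should be lost in these libraries, passed the filter for 20 of 67 genes, of which 7 rose and none fell (3 rose without replicate 2 at 1% and 4 without replicate 1 at 20%); Hist1h1c had 56.7 and 67.5 CPM at 1% oxygen, against 31.9 and 33.2 CPM at 20% (0.91 ± 0.10).

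**Figure D4:**
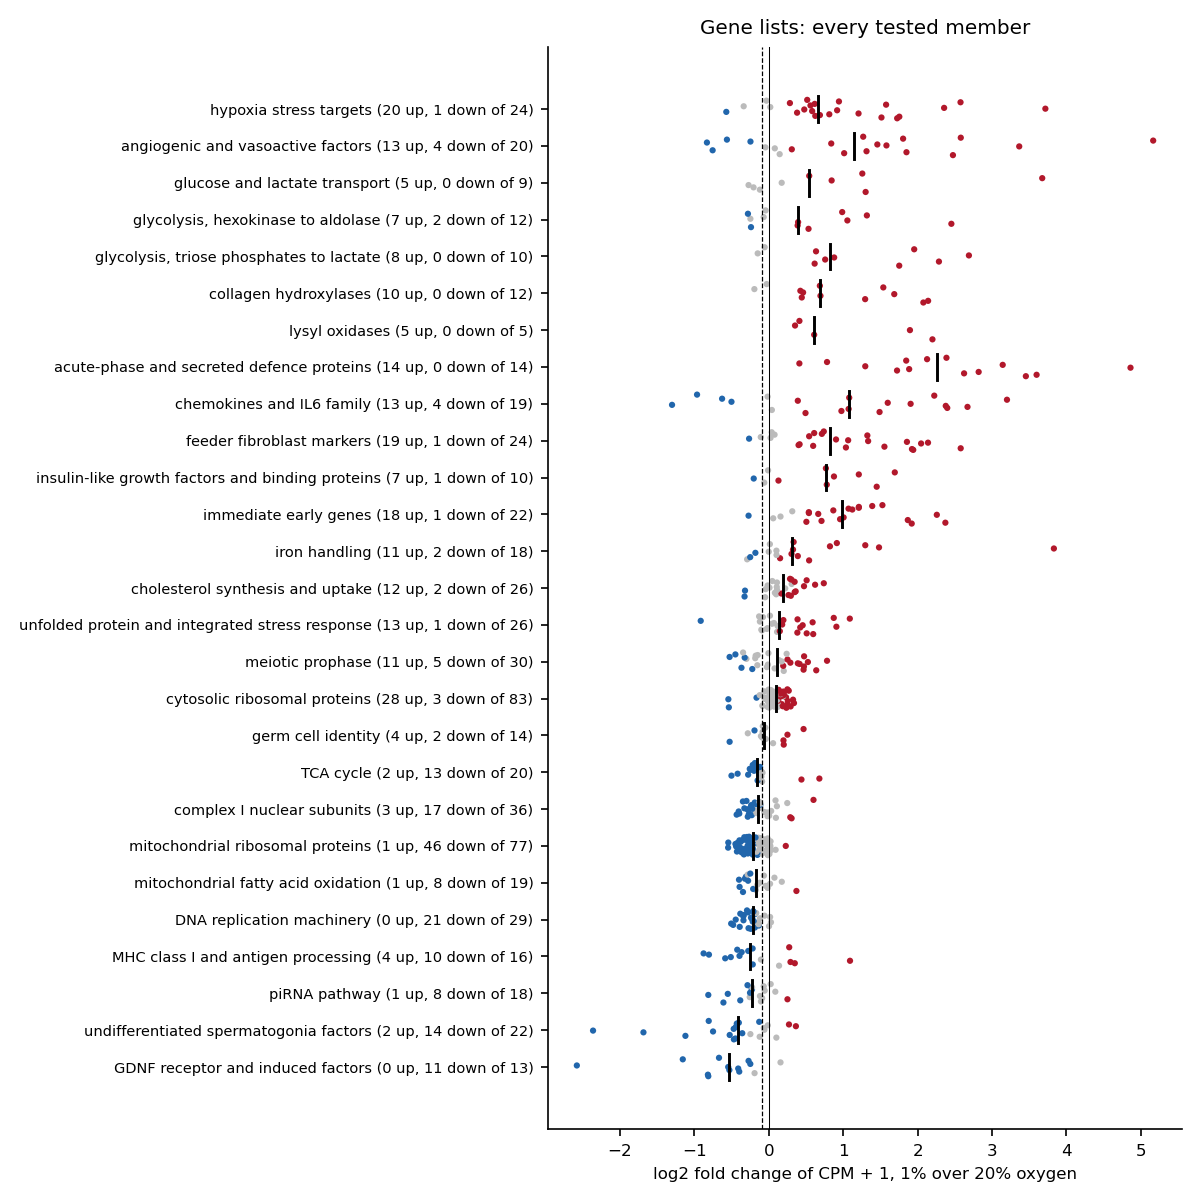
Log2 fold change of CPM + 1 (1% over 20% oxygen) of every tested member of 27 gene lists, 1 point per gene, red where called higher, blue where called lower and grey where not called, with a bar at the median of the list and a dashed line at the median of all genes. Counts called higher (up) and lower (down) stand beside each name. Among these lists, chosen with earlier results of these data known, acute-phase proteins reach the highest median, 2.26, and the GDNF list the lowest, -0.53.

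The 2 libraries at 1% oxygen differed from each other by more than 1.5-fold in 184 genes, against 58 genes at 20%. The 8 widest gaps, among genes with a mean of at least 20 CPM at 1%, were Oaf, Col5a3, Obsl1, Creb3, Nsg1, Prr13, Masp1 and Gm10260, and replicate 2 was the higher in all 8. Col5a3, a fibrillar collagen chain, had 61.4 and 94.1 CPM at 1% oxygen, against 80.2 and 85.3 CPM at 20%, so its 2 libraries at 1% lay on either side of those at 20%. Oaf, a secreted protein, had 24.0 and 37.3 CPM at 1% oxygen, against 43.1 and 43.1 CPM at 20%, and Creb3, a transcription factor held in the endoplasmic reticulum, had 19.8 and 30.3 CPM at 1% oxygen, against 18.8 and 17.8 CPM at 20%.

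The response was set beside that of DBA/2 wild type cells, which shares no library with it. There, 4725 genes (31.8%) were called higher and 3789 (25.5%) lower at 1% oxygen. Higher in both lines were 1402 genes, which is 51.2% of the rises of the Hif1a line and 29.7% of those of DBA/2, and lower in both were 2244, or 43.7% and 59.2%. In opposite directions were 433 genes that rose in the Hif1a line and fell in DBA/2, and 813 that fell in the Hif1a line and rose in DBA/2. The difference between the 2 responses was tested for each gene by limma (Hif1a line minus DBA/2): 6830 genes (46%) were called, 2248 (15.1%) positive and 4582 (30.9%) negative, with a median of -0.13. Under TMM scaling, which moved that median by 0.12 on the log2 scale, 3182 were positive and 2886 negative. The lines differ in background, and their libraries may differ in set and in time at 1% oxygen, which cannot be told apart from the line.

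Hypoxia targets and glycolytic genes rose in both lines, with glycolytic genes rising less in the Hif1a line. Of the 24 hypoxia stress targets, 20 rose here and 20 in DBA/2, and the difference was positive in 4 and negative in 7. Bnip3 rose by 2.58 here and 2.49 in DBA/2, and the difference was 0.09 ± 0.09, not called. For Adm the difference was also not called, at 0.06 ± 0.13. Of the 12 upper glycolytic genes the difference was negative in 10 and positive in 1, and of the 10 lower ones negative in 7 and positive in 2, against 30.9% negative and 15.1% positive over all genes. Under TMM scaling the negative ones numbered 7 and 5. Pfkp rose by 1.06 here and 2.92 in DBA/2, a difference of -1.87 ± 0.07 (limma adjusted p = 9.2e-14). Ero1l likewise rose by 1.51 here and 2.59 there (difference -1.08 ± 0.06). Other targets rose more here: Car9 by 3.72 and 1.43 in DBA/2 (difference 2.29 ± 0.22), Vegfa by 2.47 and 0.93 (difference 1.54 ± 0.13), and Ndufa4l2 by 5.04 and 2.85 (difference 2.19 ± 0.19). Hif1a, which rose here, changed by -0.01 in DBA/2 (difference 1.10 ± 0.08).

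The 2 lines parted in secreted, matrix and cholesterol genes. Of the 14 acute-phase proteins, 2 rose and 8 fell in DBA/2, and the difference was positive in all 14. Of the 19 chemokines and IL6 family genes 3 rose and 13 fell there, and the difference was positive in 17. Feeder markers rose in 2 and fell in 17 of 24 in DBA/2, with a positive difference in 21. These feeder marker changes lie beside the secreted and matrix genes in both lines, and their part was not tested. Cholesterol genes rose in 1 and fell in 19 of 26 in DBA/2, and the difference was positive in 22 and negative in none; Sqle changed by 0.47 here and -0.35 there (difference 0.83 ± 0.07). The GDNF list fell in both, in 11 of 13 genes here and 8 in DBA/2, with 3 positive and 3 negative differences (6 and 3 under TMM scaling); Ret changed by -0.82 here and by -0.93 in DBA/2 (difference 0.11 ± 0.06, not called, but called positive at 0.24 under TMM scaling). Zbtb16 changed by -0.47 here and by -1.52 in DBA/2, a difference of 1.05 ± 0.07.

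The largest positive difference was of Chl1, a neural adhesion protein, which had 98.4 and 104 CPM at 1% oxygen, against 8.88 and 11.1 CPM at 20% in the Hif1a line and 1.80 and 2.77 CPM at 1% oxygen, against 14.6 and 14.9 CPM at 20% in DBA/2 cells. It rose in the first and fell in the second, with no overlap of libraries in either. Lum, a collagen-binding proteoglycan, did the same, with 153 and 150.2 CPM at 1% oxygen, against 32.3 and 35.1 CPM at 20% in the Hif1a line and 7.23 and 5.71 CPM at 1% oxygen, against 46.8 and 39.5 CPM at 20% in DBA/2 (difference 4.70 ± 0.14). The largest negative difference was of B3gnt5, a glycosyltransferase of glycolipids, with 6.12 and 6.93 CPM at 1% oxygen, against 18.4 and 17.8 CPM at 20% here and 21.0 and 21.1 CPM at 1% oxygen, against 4.56 and 4.35 CPM at 20% in DBA/2 (-3.36 ± 0.15). Krt19, a keratin, rose in both lines, with 7.07 and 8.15 CPM at 1% oxygen, against 5.51 and 4.88 CPM at 20% here and 48.9 and 46.8 CPM at 1% oxygen, against 3.21 and 2.43 CPM at 20% in DBA/2, and the difference was -3.21 ± 0.19.

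**Figure D5:**
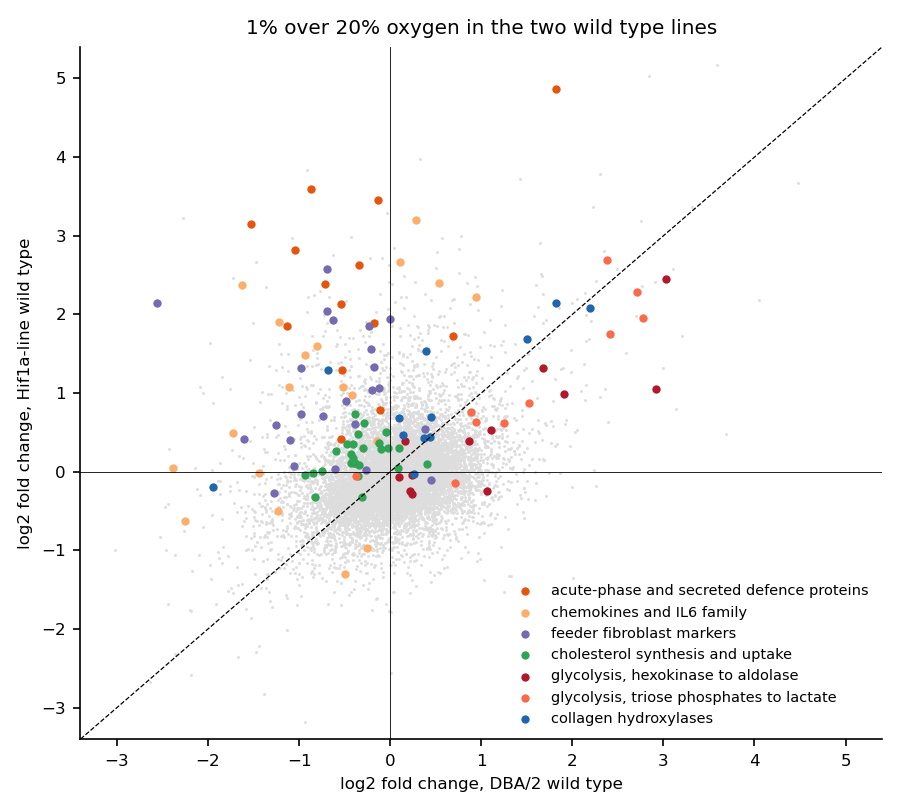
Log2 fold change of CPM + 1 (1% over 20% oxygen) in Hif1a-line wild type cells (vertical) against DBA/2 wild type cells (horizontal), with all genes in grey, 7 lists in colour and the dashed line marking equal change. Acute-phase proteins, chemokines and cholesterol genes lie mostly above the dashed line, and most glycolytic genes lie below it.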

How the data were processed

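Poly(A)-selected RNA was sequenced in 16 libraries (RNeasy Plus Micro extraction and TruSeq stranded mRNA kits, per the labels' protocols). The authors deposited CPM (counts per 1000000 reads) for 21924 protein-coding genes. Per the submitters' processing notes, which assign no roles, cutadapt 1.16, STAR 2.6.0c, HTSeq 0.11.2 and DESeq2 1.22.2 were used, with build mm10. The strand setting and annotation were not stated. Columns add up to 1000000. Dividing by the value of 1 read gave whole numbers (tolerance 0.01) for 100% of values, so reads could be recovered.

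From these CPM, log2(CPM + 1) was fitted over all 16 libraries with limma 3.58.1 (R 4.3.3), 1 mean per group, trended empirical Bayes moderation and no replicate block, on genes that reached 1 CPM in 2 or more libraries. P-values were adjusted by Benjamini-Hochberg over 14841 genes and called at 0.05. The study's own counts were not given as such, so edgeR 4.0.16 and DESeq2 1.42.0 were run on the recovered reads as alternatives. edgeR called 3690 genes higher and 3633 lower. Other alternatives were TMM, median-of-ratios and germ cell gene scaling, a pseudocount of 0.5, no filter or a CPM of at least 5, a fit of only the groups compared, a replicate block, and leaving out each library.

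The gene lists and members were chosen with earlier results of these data known. Named genes followed a rule: the 12 largest rises and 12 largest falls with a mean of at least 5 CPM and no overlap between groups; up to 6 members of each list with the smallest adjusted p and up to 2 called members against the direction of most; the 8 largest differences between the lines each way; the 8 largest replicate gaps; genes at 0 reads at one oxygen level; and a fixed set that includes Hif1a, Epas1, Vegfa, Gfra1, Ret, Zbtb16, Kit, Stra8, Ddx4, Top1mt, Col1a1 and Col3a1. Names of genes that share exon positions, and markers below the filter, were added with no values. In GENCODE M21 (GRCm38) symbols were found once for 21897 genes and more than once for 27. Promoters came from RefSeq (GRCm38.p6). A total of 6 mitochondrially encoded genes did not pass the filter. Of the 13 in the table, 5 (mt-Atp6, mt-Atp8, mt-Co3, mt-Nd3 and mt-Nd4l) had 0 reads in all 4 libraries, though mt-Co1 was abundant. The cause of these zeros was not tested, so a gene listed at 0 was not given a fold change. The 4 libraries held 13721246 to 20918532 reads on listed genes, and 1 read stood for 0.0478 to 0.0729 CPM.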

Additional observations from a re-analysis of the deposited data

Results flagged for a closer look

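The oxygen response of 16 genes differed between the Hif1a line and DBA/2 by a test of the difference itself (limma on log2(CPM + 1), Hif1a wild type minus DBA/2 wild type). They were the 8 largest called differences in each direction with a mean of at least 5 CPM in 1 of the 4 groups. Each value below is that difference on the log2 scale with its standard error.

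The positive ones were Chl1 (5.50 ± 0.19), Steap4 (4.74 ± 0.18), Lum (4.70 ± 0.14), Serpina3n (4.67 ± 0.13), Ptx3 (4.47 ± 0.15), the angiotensin receptor Agtr2 (4.19 ± 0.17), the growth factor Ereg (4.14 ± 0.19) and the secreted Wnt antagonist Sfrp4 (4.05 ± 0.27). All 8 were called higher at 1% oxygen in the Hif1a line and had negative changes in DBA/2. Ereg had 306 and 337 CPM at 1% oxygen, against 50.9 and 48.6 CPM at 20% in the Hif1a line and 47.7 and 35.3 CPM at 1% oxygen, against 134 and 101 CPM at 20% in DBA/2, with no overlap in either line. Agtr2 had 36.7 and 32.3 CPM at 1% oxygen, against 6.13 and 4.78 CPM at 20% in the Hif1a line and 4.19 and 3.81 CPM at 1% oxygen, against 16.5 and 14.6 CPM at 20% in DBA/2.

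The negative ones were B3gnt5 (-3.36 ± 0.15), Krt19 (-3.21 ± 0.19), the cytochrome P450 gene Cyp2s1 (-2.78 ± 0.21), the cathepsin Ctsw (-2.65 ± 0.19), the Polycomb-associated Phf19 (-2.63 ± 0.15), Crmp1 (-2.56 ± 0.12), the epithelial factor Elf3 (-2.43 ± 0.21) and the prolactin family gene Prl2c3 (-2.40 ± 0.23). They do not share a direction in the Hif1a line, since Krt19 rose, Elf3 was not called and the other 6 fell. Phf19 had 3.57 and 3.90 CPM at 1% oxygen, against 11.1 and 10.5 CPM at 20% in the Hif1a line and 18.7 and 17.5 CPM at 1% oxygen, against 6.80 and 6.66 CPM at 20% in DBA/2. Crmp1 had 4.37 and 4.70 CPM at 1% oxygen, against 32.2 and 30.8 CPM at 20% in the Hif1a line, and its DBA/2 libraries overlapped, with 31.8 and 29.0 CPM at 1% oxygen, against 29.3 and 30.98 CPM at 20%. With 2 libraries in a group, single libraries could not be tested as outliers.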

How the results depend on the processing

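The direction of every named gene that was called in the comparison held under all the alternatives run. Of 254 named genes, 223 kept their call or its absence in 1% against 20% oxygen under each of 14 alternatives, and 31 changed it in at least 1. Calls lost or gained without 1 library, where not already given, are these. Without replicate 1 at 1% the calls of Acta2 (-0.07), Cox4i1 (-0.06), Oaf (-0.20), Obsl1 (-0.05), Pdgfrb (-0.12), Pfkfb4 (-0.26) and Slc16a7 (0.45) were lost, and Cdkn2a (0.23), Gm10260 (0.58), Prr13 (0.53) and Stra8 (0.28) were called. Without replicate 2 at 1% those of Creb3 (0.11), Fgfr3 (0.35), Krt19 (0.38), Pfkfb4 (-0.30), Spred3 (0.20) and Thy1 (0.14) were lost, and Ccnb1 (0.16), Col5a3 (-0.42) and Masp1 (-0.40) were called; the last 2, with wide gaps between replicates at 1%, ranged up to 0.18 under other alternatives. Without replicate 1 at 20% those of Acta2 (-0.26), Cox4i1 (-0.13), Fgfr3 (0.29), Obsl1 (-0.33), Pdgfrb (-0.30), Pfkfb4 (-0.34), Rbx1 (-0.19), Slc16a7 (0.58) and Thy1 (0.24) were lost. Without replicate 2 at 20% those of Acta2 (-0.27), Cox4i1 (-0.13), Creb3 (0.36), Krt19 (0.40), Obsl1 (-0.36), Pdgfrb (-0.23), Pfkfb4 (-0.22) and Slc16a7 (0.51) were lost.

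Genes called higher numbered 2143 to 2539 and lower 4032 to 4848 without 1 library, where the lone library of a group is assumed to vary like the other groups. DESeq2 on the recovered reads called 3060 lower, against 5140 in the main fit, and 3219 higher. The share of calls that were higher was 34.7% in the main fit, 49.5% with TMM, 49.8% with median-of-ratios scaling, 50.4% with edgeR, 51.3% with DESeq2 and 31.7% with germ cell gene scaling. For the difference between the lines, 4582 genes were negative in the main fit, 2886 with TMM, 2989 with median-of-ratios scaling, 3052 with edgeR and 2314 with DESeq2; the cause was not tested. Without 1 library 1867 to 2259 differences were positive and 3772 to 4647 negative. Of 126 list counts, 66 stayed within 1.5 times the main count under every alternative and 60 did not.

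With the replicate block 2762 genes were higher and 5148 lower, and differences were 2263 positive and 4557 negative. Pfkfb4 lost its call (adjusted p = 0.053 by limma) and Stra8 (0.036) and Gm10260 (0.045) gained one. Whether replicates of the same number were paired is not known. The gaps between replicates correlated by 0.10 across genes between 1% and 20% oxygen, which with only 2 pairs cannot settle it. Genes that did not reach 1 CPM in 2 libraries were left out of the main fit by the filter, and levels well under 1 CPM rest on few reads. The 2 libraries a group limit the precision.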
